A study of Mus musculus with 4 samples.

Results

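The cells described here carried transcripts for growth hormone releasing hormone (Ghrh) in a preparation of the developing mouse hypothalamic arcuate nucleus (ARC), and were gated to find its developing Ghrh neurons. They were chosen by measured values, namely at least 1 unique molecular identifier (UMI, 1 counted transcript molecule) of Ghrh and at least 1 of Stmn2, a gene of postmitotic neurons. Of 6465 barcodes, 6351 passed the limits on gene number, mitochondrial UMIs and haemoglobin, 4646 of these held Stmn2, and 105 held both genes. These 105 are called Ghrh-positive cells. Markers of Ghrh neurons were frequent in the 55 of them with 2 or more Ghrh UMIs and much less so in the 50 with 1, so the gate does not hold Ghrh neurons alone. The other 4541 Stmn2-positive cells served as the comparison. The tissue was the GFP-positive region of the hypothalamus dissected from 6 C57BL/6 embryos with the Pomc-eGfp genotype, a line in which the Pomc promoter drives green fluorescent protein. The labels give day E15 as the age, whereas the titles read E15.5. The dissected tissue was pooled, then dissociated with papain and made into 1 library that was sequenced in 4 runs. No cell can be assigned to an embryo or a run. With 1 library there are no replicates, so no test was possible, and every interval below is a 95% interval that covers counting error only.

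GHRH is a peptide hormone released at the median eminence, and it drives the secretion of growth hormone by the anterior pituitary. In the adult ARC, many Ghrh neurons also contain tyrosine hydroxylase (Th), the first enzyme of catecholamine synthesis, and galanin (Gal), a second neuropeptide. During development the homeodomain gene Gsx1 is required for Ghrh neurons, and the Dlx homeodomain genes mark developing GABAergic neurons of the ventral forebrain. Prox1, a homeobox gene active as many neurons leave the cell cycle, completes the set of markers used for these cells.

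Sequencing depth was similar in both groups. The Ghrh-positive cells held a median of 3571 UMIs from 1692 genes, with a range of 1852 to 10274 UMIs. The other Stmn2-positive cells held a median of 3378 UMIs from 1618 genes. The median mitochondrial share was 3.64% against 4.08%. At this depth, genes with few transcripts are missed in many cells, and free RNA can add UMIs to cells that do not express a gene, so a share given here counts cells with a UMI. Cells were also thinned to 2245 UMIs each, which left out 7 Ghrh-positive cells and 458 other cells that were shallower.

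Ghrh UMIs were spread very unevenly over the 105 cells. They held 701 of the 771 Ghrh UMIs of all kept cells, or 90.9%, with a median of 2 and a maximum of 35 in a cell. Of these cells, 50 held a single Ghrh UMI, 30 held 2 to 9 and 25 held 10 or more. The 25 cells with 10 or more supplied 486 UMIs, which is 63.0% of all Ghrh UMIs. At the edges of the gate, 12 Ghrh-positive cells held 1 Stmn2 UMI, 6 held 1 UMI of each gene, and 25 cells with Ghrh but no Stmn2 UMI lay just outside it. Of these 25 cells, 7 held 2 or more Ghrh UMIs and 6 held Th.

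**Figure D1:**
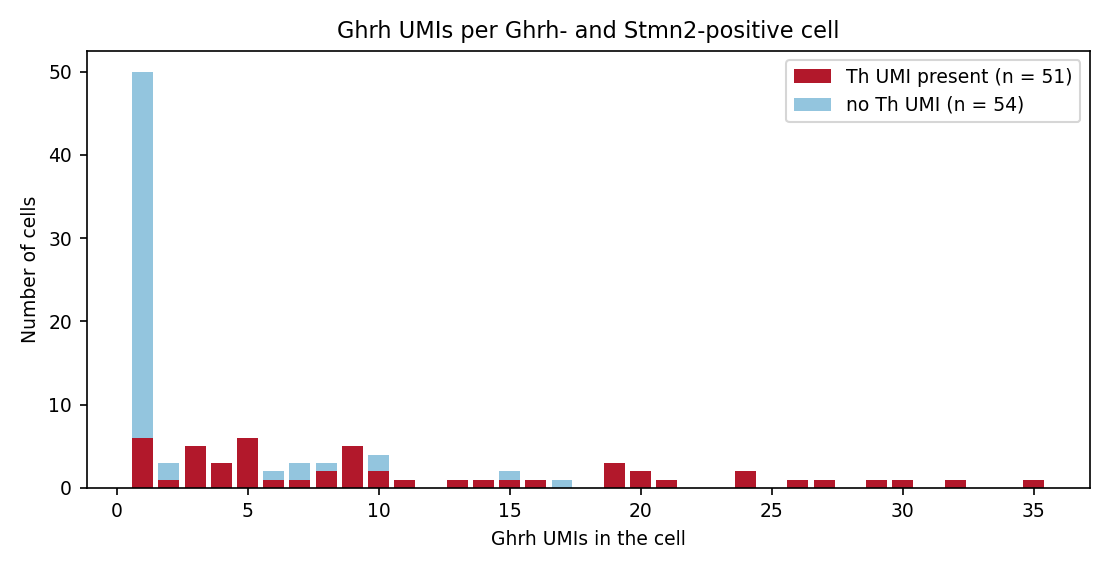
Number of cells (y axis) by the number of Ghrh UMIs in the cell (x axis) for the 105 Ghrh- and Stmn2-positive cells, with the 51 cells that held a Th UMI in red and the 54 without one in blue. The bar at 1 Ghrh UMI holds 50 cells, 6 of them with Th, and the cells from 2 to 35 UMIs are mostly red.

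A single Ghrh UMI was also found in cells of other kinds. Exactly 1 Ghrh UMI was found in 1.08% of the 4646 Stmn2-positive cells (0.800 to 1.42), and in 1.06% of the 1705 cells without Stmn2 (0.627 to 1.66), which need not lack the transcript. Of cells without Stmn2 that should lack it, 1.12% of the 538 with pituitary markers held 1 Ghrh UMI (0.410 to 2.41), as did 1 of the 221 with markers of vessels or fibroblasts, or 0.452% (0.0115 to 2.50). The median depth of these groups was 3385, 3185, 4066 and 3851 UMIs. At least 2 Ghrh UMIs, by contrast, were present in 55 Stmn2-positive cells, or 1.18% (0.893 to 1.54). They were present in 0.411% of cells without Stmn2 (7 cells), in 0 of the 538 pituitary-marker cells (a count of 0 allows at most 0.558% by a floor of 3 counts) and in 0 of the 221 vessel or fibroblast cells (at most 1.36%). The share of Stmn2-positive cells with a single Ghrh UMI was not above that in pituitary-marker cells, so no Ghrh expression is read from 1 UMI, and these 50 are called cells with 1 Ghrh UMI. Values are given for all 105 cells and, where stated, for the 55 cells with 2 or more.

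The markers separated these classes. Th was found in 12.0% of the cells with 1 Ghrh UMI, in 80.0% of those with 2 to 9 and in 84.0% of those with 10 or more, whereas 2.86% of the other Stmn2-positive cells held it. Prox1 was found in 18.0%, 73.3% and 72.0% of the 3 classes and in 12.9% of the other cells. Gsx1 was found in 10.0%, 30.0% and 40.0%, against 1.89%. Gal was found in 6.00%, 43.3% and 44.0%, against 1.50%. The intervals of the 2 upper classes overlapped for each of these 4 genes. In the cells with 1 Ghrh UMI, the intervals of Th (4.53 to 24.3) and Gsx1 (3.33 to 21.8) still lay above the shares in the other cells. Those of Prox1 (8.58 to 31.4) and Gal included their shares there. In vessel or fibroblast cells, Gsx1 and Gal were at 0, Th was at 0.452% and Prox1 at 4.07%. At least 1 of Th, Prox1, Gsx1 and Gal was present in 54 of the 55 cells with 2 or more Ghrh UMIs, in 28.0% of the cells with 1 (16.2 to 42.5) and in 17.7% of the other cells (16.6 to 18.8). At least 3 of these genes were present in 43.6% of the 55 cells (30.3 to 57.7), in 2 of the 50 cells with 1 Ghrh UMI and in 0.0661% of the other cells, or 3 of 4541. After thinning, Th was found in 60.0% of the cells with 2 or more Ghrh UMIs, 6.25% of those with 1 and 2.30% of the other cells. The interval of the 6.25% (1.31 to 17.2) then included the share of the other cells. Prox1, by the same measure, was found in 60.0%, 6.25% and 8.35%. For Gsx1, these shares were 26.0%, 6.25% (1.31 to 17.2) and 1.20%.

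**Figure D2:**
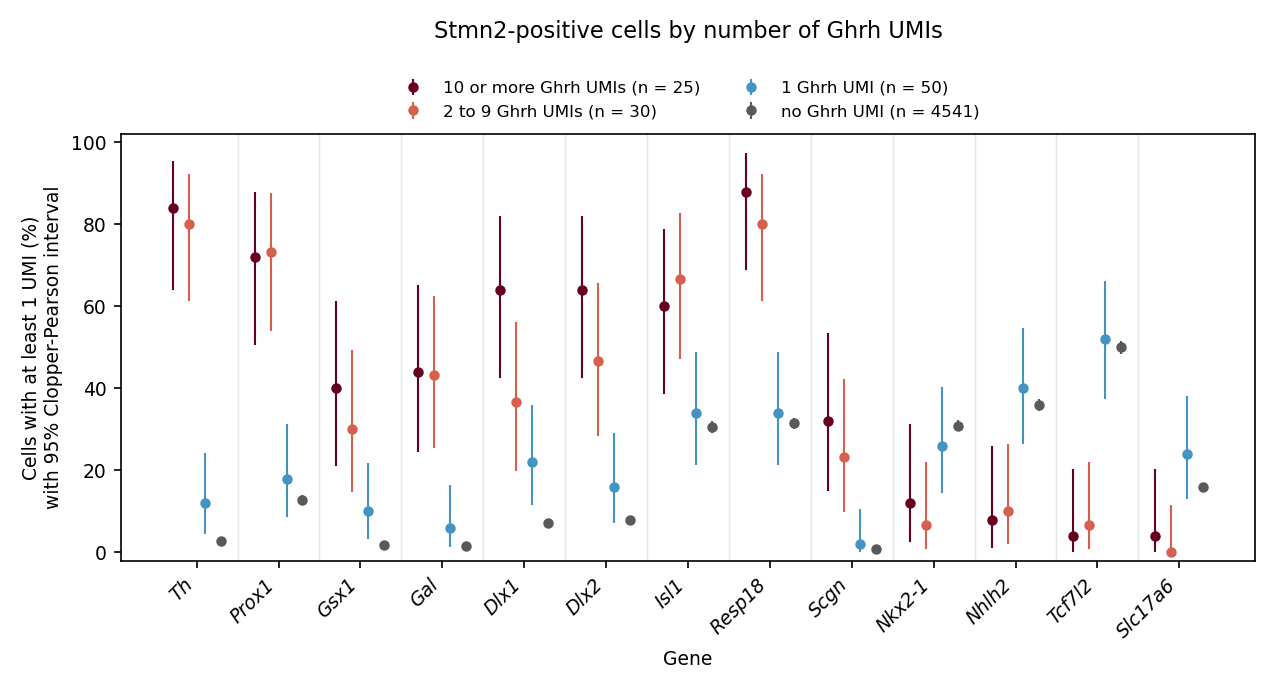
Percent of cells with at least 1 UMI (y axis, with 95% Clopper-Pearson intervals as bars) of 13 genes (x axis) in Stmn2-positive cells with 10 or more, 2 to 9, 1 or no Ghrh UMIs. For Th, Prox1, Gsx1, Gal, Dlx1, Dlx2, Resp18 and Scgn the 2 classes with more Ghrh lie above the others, whereas for Nhlh2, Tcf7l2 and Slc17a6 the cells with 1 Ghrh UMI lie beside the cells with none.

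By share of cells, the 8 genes of other neurons named next did not stand apart between the cells with 1 Ghrh UMI and the comparison cells, whose shares lay within the counting intervals of the former. Tcf7l2, a Wnt effector abundant in thalamic neurons, was found in 52.0% of them, in 50.0% of the other Stmn2-positive cells and in 5.45% of the cells with 2 or more Ghrh UMIs. Nhlh2, a factor of Pomc and Kisspeptin neurons, was found in 40.0%, 36.0% and 9.09% of these groups. Slc17a6, the vesicular glutamate transporter VGLUT2, was found in 24.0%, 15.9% and 1.82%. Pou4f1, a habenular factor, was found in 24.0% and 20.9%, and in 0 of the 55 cells. Otp was found in 12.0% of the cells with 1 Ghrh UMI (4.53 to 24.3) and 18.8% of the comparison cells, Npy in 2 of the 50 cells (0.488% to 13.7%) and 5.06%, Sst in 2 of the 50 and 6.54%, and Pomc in 24.0% (13.1 to 38.2) and 23.0%. By CPM, these 4 genes were lower in the cells with 1 Ghrh UMI, with log2 ratios of -1.58 (-2.53 to -0.77) for Otp, -1.80 (-3.25 to -0.67) for Npy, -2.75 (-4.63 to -1.39) for Sst and -1.10 (-1.56 to -0.67) for Pomc. Single comparison cells held up to 141 Npy and 55 Sst UMIs, which weigh on CPM and not on shares. Between the cells with 2 or more Ghrh UMIs and those with 1, 240 of 3241 measured genes had at least 2-fold higher CPM (UMIs of a gene per 1000000 UMIs of the group), or 7.41%, and 190 had at least 2-fold lower CPM, or 5.86%. Measured means 20 UMIs in the compared groups together and at least 5 expected in the smaller one.

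Against the other Stmn2-positive cells, the 105 Ghrh-positive cells differed in few genes by 2-fold or more. Of 7710 measured genes, 116 or 1.50% had at least 2-fold higher CPM and 486 or 6.30% had at least 2-fold lower CPM. The median log2 ratio of all measured genes was -0.02. Th had the highest ratio of the measured markers, with 103 UMIs in the Ghrh-positive cells, 256 against 9.75 CPM and a log2 ratio of 4.72 (4.35 to 5.08). Prox1 stood at 254 against 43.7 CPM, a log2 ratio of 2.54 (2.23 to 2.84). Gal and Gsx1 were too rare to pass the limit for measured genes, but their intervals lay far from 0. Gal had 48 UMIs and a log2 ratio of 4.41 (3.88 to 4.92), and Gsx1 had 32 UMIs and a log2 ratio of 3.73 (3.11 to 4.31). In the 55 cells with 2 or more Ghrh UMIs, set against the same cells without Ghrh, 171 of 5101 measured genes or 3.35% were at least 2-fold higher and 557 or 10.9% at least 2-fold lower. There, the log2 ratios were 5.62 for Th, 3.36 for Prox1, 5.42 for Gal and 4.58 for Gsx1.

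Transcription factors of the Dlx lineage were higher. Dlx1 was found in 36.2% of the Ghrh-positive cells against 7.11% of the other cells, with a log2 CPM ratio of 2.36 (1.95 to 2.74). Dlx2, its neighbour on chromosome 2, was found in 36.2% against 7.88%, with a ratio of 2.33 (1.93 to 2.71). Dlx6os1, the RNA transcribed antisense to Dlx6, had a log2 ratio of 2.09 (1.47 to 2.67), and reads of such overlapping genes can be assigned to the wrong partner. A UMI of Dlx1, Dlx2, Dlx5 or Dlx6 was present in 92.0% of the 25 cells with 10 or more Ghrh UMIs, in 66.7% of those with 2 to 9, in 24.0% of those with 1 and in 14.4% of the other cells. Prox1os, antisense to Prox1, followed Prox1 with a log2 ratio of 3.23 (2.82 to 3.62). Of 18 factors of GABAergic interneurons, 10 were measured, and 4 of them had at least 2-fold higher and 1 at least 2-fold lower CPM. The lower one was Etv1, an ETS factor, at -1.78 (-3.10 to -0.74), while Zfhx3, a zinc finger homeobox gene, stood at -0.70 (-1.02 to -0.39). Of these factors, 6 were measured in the 55 cells with 2 or more Ghrh UMIs, of which 3 were at least 2-fold higher and 3 at least 2-fold lower, with a median of 0.92.

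The Ghrh gene lies on the minus strand of chromosome 2 at chr2:157329497-157347506 (mm10, GRCm38). Gsx1 and the Dlx proteins belong to homeodomain families that bind sites with a TAAT core, so the upstream sequence of Ghrh was searched for TAATTA, which reads the same on both strands. RefSeq gives 2 start sites for Ghrh. The 250 bases before the downstream one, chr2:157337427-157337676 on the minus strand of GRCm38.p6, hold TAATTA at 2 places, which begin 243 and 153 bases before the start. They are shown 5′ to 3′ because Ghrh is the gene that defines these cells, with TAATTA in capitals.
Ghrh upstream: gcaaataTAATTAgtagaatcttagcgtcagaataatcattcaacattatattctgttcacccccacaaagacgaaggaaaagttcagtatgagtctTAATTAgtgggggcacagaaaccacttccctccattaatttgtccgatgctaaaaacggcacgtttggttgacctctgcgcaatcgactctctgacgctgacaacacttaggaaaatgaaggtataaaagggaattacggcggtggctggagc
The 250 bases before the other start site, chr2:157346656-157346905, hold no TAATTA. Neither do the upstream windows of Th, Prox1, Gsx1 and Gal, so that 1 of 7 windows of the 5 marker genes holds it. Among all 32851 promoter windows of this length, 4.84% hold TAATTA and 54.9% hold TAAT on either strand. A match is a description of the letters, and no binding was measured here.

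The study named 8 factors as enriched in its Ghrh subcluster from this same library, so their counts are not independent evidence. That subcluster was set against other subclusters, whereas a gate is here set against all other Stmn2-positive cells, so the comparisons differ. Of these, 7 were measured, 5 had at least 2-fold higher CPM and none at least 2-fold lower, with a median log2 ratio of 1.48. With 2 or more Ghrh UMIs, 6 were measured and 5 were at least 2-fold higher, with a median of 2.05. Over all 105 cells, Prox1, Dlx1, Dlx2, St18 and Pbx3 passed 2-fold. St18, a zinc finger repressor, stood at 1.48 (0.62 to 2.23), and Pbx3, a TALE homeodomain cofactor, at 1.12 (0.56 to 1.63). Egr1, an immediate-early factor, stood at 0.53 (0.22 to 0.82). Foxp2, a forkhead factor, was found in 30.5% of the Ghrh-positive cells (22.4% after thinning) and in 19.6% of the other cells (14.4% after thinning). Its log2 CPM ratio was 0.35, and the interval from -0.09 to 0.75 included no difference. In the cells with 2 or more Ghrh UMIs the ratio was 0.19 (-0.50 to 0.81). It was 0.82 (0.37 to 1.23) against comparison cells with hypothalamic factors only, while all 105 Ghrh-positive cells stayed in. It was 0.69 (0.04 to 1.27) where 1 random part of the UMIs chose the cells and the other gave the values. Among the alternative settings, only the intervals around 0.82 and 0.69 left out 0. Among the cells with 2 or more Ghrh UMIs, Foxp2 was found in 27.3%, against 34.0% of the cells with 1, and in vessel or fibroblast cells in 22.6%.

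Most factors that are broad in the ARC had ratios below 0. The 7 factors that the study named as depleted were chosen in this same library, so their direction is not independent evidence. All 7 were measured and had log2 ratios below 0, with a median of -0.67, and 1 of them passed 2-fold. At 2 or more Ghrh UMIs, 6 of the 7 were at least 2-fold lower, with a median of -1.65. The one past 2-fold over all 105 cells was Otp, a homeodomain factor of Agrp and Sst neurons, found in 10.5% against 18.8% of cells with a log2 CPM ratio of -1.61 (-2.29 to -1.01). The ratio of Otp was -4.56 (-9.86 to -2.08) where 1 random part of the UMIs chose the cells and the other gave the values. That value rested on very few Otp UMIs, and under the other settings the ratio lay between -2.21 and -1.35. Nkx2-1, required for the ventral hypothalamus as a whole, was found in 17.1% against 30.9% with a ratio of -0.67 (-1.15 to -0.23). In the cells with 2 or more Ghrh UMIs it was found in 9.09%, with a ratio of -2.12 (-3.44 to -1.08). Six3 and Six6, sine oculis homeobox genes of the anterior ventral forebrain, stood at -0.79 (-1.18 to -0.43) and -0.90 (-1.36 to -0.46). Sox11, a factor of immature neurons, stood at -0.38 (-0.47 to -0.29), and at -1.24 (-1.42 to -1.07) in the cells with 2 or more Ghrh UMIs.

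Of 49 ARC and hypothalamic factors, 38 were measured, 3 were at least 2-fold higher and 8 at least 2-fold lower, with a median log2 ratio of -0.51. Counting only the 55 cells with 2 or more Ghrh UMIs, 30 were measured, 4 were at least 2-fold higher and 17 at least 2-fold lower, with a median of -1.46. Over all 105 cells, the higher ones were St18, Pbx3 and Hmx2, an NKL homeobox gene, at 1.25 (0.48 to 1.93). Rfx3, a ciliogenic winged-helix factor, stood at 0.94 (0.50 to 1.35). Tbx3, a T-box gene of tuberal progenitors and Pomc neurons, was found in 1 of the 105 cells against 11.8% of the others, a log2 ratio of -2.16 (-4.04 to -0.80). Isl1, a LIM homeodomain gene shared by many ARC neurons, was found in 49.5% against 30.6% of cells, yet its CPM ratio was 0.20 (-0.12 to 0.50). In the 55 cells with 2 or more Ghrh UMIs it was found in 63.6%, with a ratio of 0.64 (0.24 to 1.02).

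**Figure D3:**
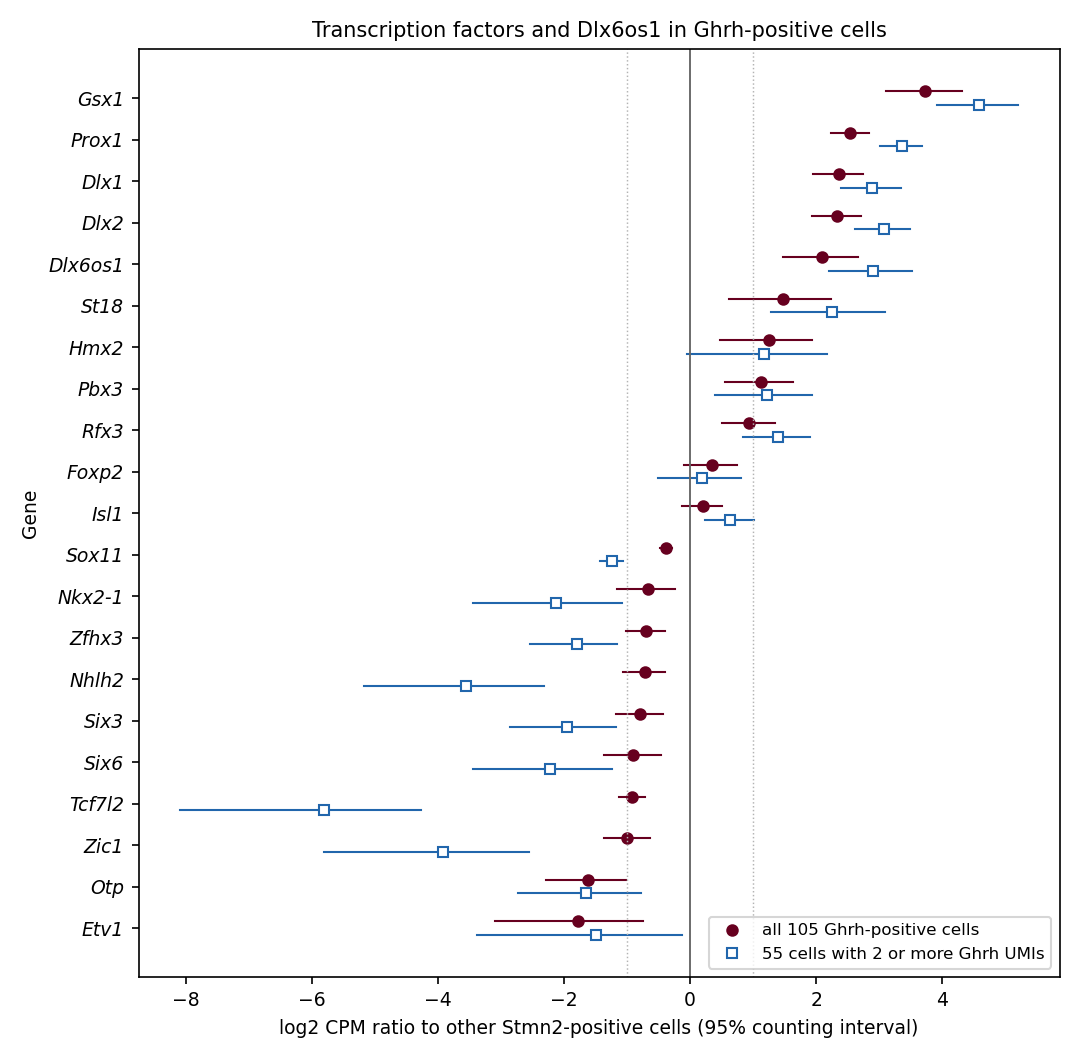
Log2 CPM ratio to the other Stmn2-positive cells (x axis) of 20 transcription factors and the RNA Dlx6os1 (y axis) in all 105 Ghrh-positive cells (filled circles) and in the 55 with 2 or more Ghrh UMIs (open squares), with 95% counting intervals as lines and dotted lines at 2-fold. Gsx1, Prox1, Dlx1, Dlx2 and Dlx6os1 lie highest, and Tcf7l2, Zic1 and Nhlh2 move to the left when the cells with 1 Ghrh UMI are left out.

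The 15 genes with the highest ratios included several that are neither factors nor hormones. Pnlip, which encodes pancreatic lipase, had 20 UMIs in the Ghrh-positive cells and 8 in the other 4541 cells, a log2 CPM ratio of 6.78 (5.53 to 8.17). It was found in 25.5% of the cells with 2 or more Ghrh UMIs, in 1 of the 50 cells with 1 and in 0.154% of the other cells. Scgn, the calcium-binding protein secretagogin, was found in 27.3% of the cells with 2 or more, in 1 of the 50 with 1 and in 0.859% of the other cells, with a log2 ratio over all 105 cells of 4.39 (3.59 to 5.16). Mbnl3, a splicing regulator, stood at 3.98 (3.24 to 4.67), and Diaph3, a formin that nucleates actin, at 3.27 (2.64 to 3.86). Pnoc, the precursor of nociceptin, stood at 2.77 (2.07 to 3.41). Lamb3, a laminin subunit, stood at 2.71 (2.03 to 3.34), and Rftn1, the lipid raft protein raftlin, at 2.69 (2.11 to 3.23). Except for Rftn1, these genes had too few UMIs to pass the limit for measured genes. They were listed through their UMIs in the Ghrh-positive cells, where they are high, so their place at the top follows in part from the choice and is given as a description.

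Cells with 2 or more Ghrh UMIs carried GABAergic rather than glutamatergic transcripts. Over all 105 cells, the 5 genes of the GABA phenotype had log2 ratios above 0, and 3 of them passed 2-fold, with a median of 1.08. In the 55 cells, 2 of the 5 had enough UMIs to be measured and 1 of these was at least 2-fold higher, with a median of 0.83. Slc32a1, the vesicular GABA transporter, stood at 1.30 (0.57 to 1.95), Gad2 at 1.23 (0.48 to 1.89) and Gad1 at 1.08 (0.11 to 1.91), the last 2 being the enzymes that make GABA. A UMI of Gad1, Gad2 or Slc32a1 was present in 43.6% of the cells with 2 or more Ghrh UMIs (30.3 to 57.7), in 10.0% of those with 1 (3.33 to 21.8) and in 15.3% of the other cells (14.2 to 16.3). A vesicular glutamate transporter was present in 1.82% of the cells with 2 or more Ghrh UMIs, or 1 of 55, and in 16.5% of the other cells.

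Most other genes of the dopamine pathway were rare in all groups, so that their absence cannot be shown at this depth. Ddc, the decarboxylase that turns L-DOPA into dopamine, was found in 4 of the 105 cells, or 3.81% (1.05 to 9.47), and in 3.30% of the other Stmn2-positive cells (2.80 to 3.87). Among the 51 Th-positive cells, 1 held Ddc, or 1.96% (0.0496 to 10.4), and 4.62% of 130 Th-positive neurons without Ghrh held it (1.71 to 9.78). The transporters Slc18a2, which loads monoamines into vesicles, and Slc6a3, which takes up dopamine, were at 0 in the 105 cells. Slc6a3 was also at 0 in the other 4541 cells. Slc18a2 was found in 1.39% of those (1.07 to 1.77) and in 6.15% of the 130 Th-positive neurons without Ghrh (2.69 to 11.8). Of 17 genes of catecholamine synthesis and transport, 7 were measured, 1 was at least 2-fold higher and 3 at least 2-fold lower. The higher one was Th itself. The lower ones were Spr and Pts, which make the cofactor tetrahydrobiopterin, at -1.61 (-4.66 to 0.26) and -1.27 (-2.59 to -0.22), and Maoa, which degrades monoamines, at -1.21 (-3.49 to 0.36). Pcbd1, which recycles the cofactor, stood at 0.63 (0.10 to 1.11).

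Genes for making and storing peptides lay on both sides of 0. Of 17 genes for peptide processing and dense-core vesicles, 15 were measured and 11 had log2 ratios above 0, beside 3689 of all 7710 measured genes. The median was 0.23. Of the 15, 2 were at least 2-fold higher and none 2-fold lower, beside 1.50% and 6.30% of all genes. In the 55 cells with 2 or more Ghrh UMIs, 13 were measured and 6 had ratios above 0, with a median of -0.12. There, 3 were at least 2-fold higher and 2 at least 2-fold lower, beside 3.35% and 10.9% of all genes. The 2 lower there were Syt4, a synaptotagmin, at -2.62 (-4.07 to -1.50), and Pcsk2 at -1.14 (-2.35 to -0.15). Resp18, a protein of secretory granules, was found in 60.0% of the Ghrh-positive cells and 31.5% of the other cells, with 471 against 142 CPM and a log2 ratio of 1.73 (1.51 to 1.94). Its share was 83.6% in the cells with 2 or more Ghrh UMIs and 34.0% in those with 1. Baiap3, needed for dense-core vesicle traffic, stood at 1.49 (0.73 to 2.15). Pcsk1n, the inhibitor of a prohormone convertase, stood at 0.90 (0.80 to 0.99) with 2572 against 1382 CPM. The convertase Pcsk2 stood at -0.91 (-1.63 to -0.28) over all 105 cells.

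Most measured neuropeptide precursors had ratios below 0. Of 37 precursors, 10 were measured, of which 4 had at least 2-fold lower and none 2-fold higher CPM, and Vgf, Scg2 and Cartpt were above 0. Gal and Pnoc, given above, were too rare to be measured. Among cells with 2 or more Ghrh UMIs, 7 were measured and 5 were at least 2-fold lower, with a median of -2.56. Pomc, the precursor that marks the neurons of the reporter line, was found in 17.1% against 23.0% of cells, with a log2 CPM ratio of -1.79 (-2.22 to -1.40). In the cells with 2 or more Ghrh UMIs it was found in 10.9%, with a ratio of -3.56 (-4.88 to -2.52). Npy stood at -2.12 (-3.25 to -1.20), Sst, whose product inhibits growth hormone release, at -3.34 (-4.96 to -2.11), and Avp, vasopressin, at -5.24 with 1 UMI (-10.55 to -2.76). Their shares of cells lay closer together, at 4.76% against 5.06% for Npy, 2.86% against 6.54% for Sst and 0.952% against 1.81% for Avp, and 1 comparison cell held 430 of the 1663 Avp UMIs there. Kiss1 and Tac2 were at 0 in the 105 cells. In the other cells Kiss1 was also at 0, and Kiss1 or Tac2 was found in 0.793%, so these genes do not set the groups apart.

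Feedback receptors of the growth hormone axis were barely detected. Ghr, the growth hormone receptor, and Ghsr, the ghrelin receptor, were at 0 in the 105 cells and were found in 1.85% and 0.132% of the other cells. Sstr1 was at 0 and Sstr2 was found in 1 cell, against 0.330% and 1.21%. Of 31 genes of this axis and of hormone receptors, 7 were measured, none was 2-fold higher and 2 were at least 2-fold lower. Those were Igf2, at 0 in the Ghrh-positive cells and at least 2.11-fold lower, and Igfbp5, an IGF binding protein, at -1.82 (-2.95 to -0.89). Esr1, an oestrogen receptor, was too rare to be measured but was found in 5.71% against 0.727% of cells, with 7 UMIs and a log2 ratio of 3.14 (1.72 to 4.33).

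Most pan-neuronal genes had ratios near 0 over all 105 cells and most measured progenitor genes were lower. Of 23 genes of neuronal maturation, 22 were measured, none was 2-fold higher and 1, Nefm at -1.19 (-2.64 to -0.06), was 2-fold lower. The median was -0.01. All measured genes were close to this, with 1.50% higher, 6.30% lower and a median of -0.02. In the 55 cells with 2 or more Ghrh UMIs, 17 of 22 measured genes had ratios below 0, beside 2626 of all 5101. Of the 22, 1 was at least 2-fold higher and 3 at least 2-fold lower, shares near the 3.35% and 10.9% of all genes. Of 15 genes of progenitors and cycling cells, 11 were measured and 7 were at least 2-fold lower, with a median of -1.15. Of these, 7 were measured in the 55 cells and 5 were at least 2-fold lower, with a median of -1.45. Over all 105 cells, Fabp7, of radial glia, stood at -2.45 (-3.46 to -1.61), Hes5, a Notch target, at -2.54 (-4.82 to -0.99), and Vim, an intermediate filament, at -1.15 (-1.62 to -0.71). Progenitor genes together gave 458 CPM in the Ghrh-positive cells and 1031 CPM in the other cells. All 6 measured genes of intermediate precursors had ratios below 0, and 1 passed 2-fold, Neurod1 at -1.23 (-2.54 to -0.17). Among the 10 genes with the lowest ratios that 10% or more of the comparison cells held, Zfp423, a zinc finger gene, stood at -2.66 (-5.71 to -0.80), Tesc, a calcium-binding protein, at -2.57 (-4.45 to -1.21), and Pcna, a replication clamp, at -2.02 (-3.90 to -0.66).

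Few channel and receptor genes passed 2-fold over all 105 cells, as was so for all measured genes (1.50% higher and 6.30% lower). More axon guidance genes lay below 0 than above it. Of 30 voltage-gated channel genes, 14 were measured, and 1 passed 2-fold in each direction: Kcnip1, a subunit that binds Kv4 channels, at 1.07 (0.55 to 1.54) and Cacna2d2, a calcium channel subunit, at -1.24 (-2.69 to -0.11). None of 12 measured GABA and glutamate receptor genes of 27 passed 2-fold over all 105 cells, with a median of 0.06. In the 55 cells, where 3.35% of all genes were at least 2-fold higher and 10.9% at least 2-fold lower, these numbers were 2 and 1 of 11 measured channel genes and 0 and 2 of 8 measured receptor genes. Of 32 axon guidance genes, 24 were measured and 18 had ratios below 0, beside 4021 of all 7710 measured genes. Of these 18, Robo3 at -2.37 (-4.65 to -0.81) and Epha7 at -1.31 (-2.63 to -0.26) passed 2-fold. These are 2 of the 24, a share near the 6.30% of all measured genes. Both encode axon guidance receptors, the latter for ephrins. The 55 cells had 17 measured guidance genes, of which none was 2-fold higher and 9 were at least 2-fold lower, with a median of -1.11. Nell1, a secreted glycoprotein related to Nell2, stood at 0.99 (0.07 to 1.79).

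Markers of other cell types were summed for each group. Removing cells with at least 2 UMIs of pituitary, macrophage, vessel or fibroblast markers, or at least 10 Pomc UMIs, left 98 Ghrh-positive cells. The Th share was then 50.0% in place of 48.6%. The log2 CPM ratios were 2.65 for Prox1, 3.60 for Gsx1, 4.41 for Gal and 2.21 for Dlx1. Marker lists of other neurons were not used for this removal. Of the 105 cells, 21 held 2 or more UMIs of the thalamus and habenula list, all with 1 Ghrh UMI. Pituitary markers gave 97.1 against 192 CPM, with Cga at 0, and 1 Ghrh-positive cell held 10 or more Pomc UMIs. Markers of macrophages gave 12.5 against 53.4 CPM, those of fibroblasts 24.9 against 71.9, and those of vessels 24.9 against 47.3. In the cells with 2 or more Ghrh UMIs, 8 of 10 pituitary, 6 of 8 macrophage, 4 of 8 vessel and 3 of 6 fibroblast genes were at 0. Oligodendrocyte genes gave 67.2 against 67.8 CPM, with Mbp at a log2 ratio of 1.25 (0.32 to 2.05) from 13 UMIs and Olig1, Olig2, Pdgfra and Sox10 at 0. The 9 fibroblast UMIs of the cells with 2 or more Ghrh UMIs were all in 1 cell. Astrocyte and ependymal genes gave 4.98 against 8.39 CPM, and erythroid genes 296 against 283. Among neurons, markers of Agrp and Otp neurons gave 92.1 against 403 CPM, of Pomc neurons 563 against 1008, of Kisspeptin neurons 239 against 392, of Lhx1 and Th neurons 281 against 315, and of the ventromedial hypothalamus 107 against 188. Markers of the thalamus and habenula gave 660 against 1250 CPM, of which the cells with 1 Ghrh UMI had 1215 and those with 2 or more had 26.6. Xist, expressed from the inactive X chromosome, was found in 85.7% of the Ghrh-positive cells and a Y-linked gene without Xist in 7.62%, against 78.5% and 8.61%.

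The 51 Th-positive and 54 Th-negative Ghrh-positive cells were compared next. The Th-positive cells held a median of 9 Ghrh UMIs and 573 in all. The Th-negative cells held a median of 1 and 128 in all, and 44 of the 54 had a single Ghrh UMI. Of 3240 measured genes, 243 or 7.50% had at least 2-fold higher CPM in the Th-positive cells and 204 or 6.30% at least 2-fold lower. Prox1 was found in 74.5% of the Th-positive and 20.4% of the Th-negative cells, a log2 CPM ratio of 2.45 (1.73 to 3.24). Dlx1 was also at 2.45 (1.52 to 3.49), Gal was at 2.53 (1.46 to 3.76) and Isl1 at 1.64 (0.97 to 2.35). Gsx1 was found in 33.3% of the Th-positive and 13.0% of the Th-negative cells. The highest ratios were those of Scgn at 4.81 (2.17 to 10.18), Mbnl3 at 3.88 (1.85 to 7.01), Diaph3 at 3.06 (1.53 to 5.04) and Dlx6os1 at 2.94 (1.39 to 4.93). Ecel1, an endothelin-converting enzyme homologue, stood at 2.70 (1.50 to 4.12), and Asb4, an ubiquitin ligase subunit of hypothalamic neurons, at 2.56 (1.64 to 3.60).

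Th-negative cells were higher in genes of other neurons. Tcf7l2 was found in 46.3% of them and 7.84% of the Th-positive cells, a log2 ratio of -5.12 (-7.01 to -3.74). Zic1, a zinc finger factor of dorsal and septal neurons, stood at -4.56 (-7.64 to -2.65), Nhlh2 at -4.19 (-6.50 to -2.58), and Cbln2, a synaptic organiser, was at 0 in the Th-positive cells and found in 25.9% of the Th-negative ones. Nkx2-1 stood at -2.79 (-4.74 to -1.32) and Pomc at -2.49 (-4.01 to -1.26). Of the 7 factors that the study named as depleted, chosen in this same library, 6 were at least 2-fold lower in the Th-positive cells. Foxp2 was found in 31.4% and 29.6%, with a ratio of 0.07 (-0.81 to 0.93), and the order of its shares turned after thinning. Of 10 immediate-early genes, 8 were measured and 5 were at least 2-fold higher in the Th-positive cells, with a median of 1.25. Fos stood at 1.36 (0.94 to 1.80), Egr1 at 1.42 (0.78 to 2.08), Npas4 at 1.52 (0.13 to 3.05), and Nr4a1 at -1.83 (-3.85 to -0.24). These genes can respond to dissociation, and the part of handling in these values was not tested.

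The 10 Th-negative cells that held 2 or more Ghrh UMIs carried several markers of the Th-positive ones. Among them, Prox1 was found in 60.0%, Gsx1 in 50.0%, Gal in 50.0%, Dlx2 in 70.0% and Asb4 in 60.0%. In the 45 Th-positive cells with 2 or more Ghrh UMIs the shares were 75.6%, 31.1%, 42.2%, 51.1% and 55.6%. A Dlx gene was present in 9 of the 10 cells, or 90.0% (55.5 to 99.7), and in 75.6% of the 45 (60.5 to 87.1). Tcf7l2 was in none of the 10. Nhlh2, Otp and Pomc were each found in 2 of the 10, and in 6.67%, 6.67% and 8.89% of the 45. The 44 Th-negative cells with 1 Ghrh UMI held Prox1 in 11.4%, Gsx1 in 4.55%, Gal in 4.55%, Dlx2 in 11.4% and Tcf7l2 in 56.8%, close to the 12.9%, 1.89%, 1.50%, 7.88% and 50.0% of the cells without Ghrh. With 10 cells, the intervals are wide, and a difference between Th-negative and Th-positive cells of this class was not detectable for these genes. The 10 and the 45 cells were not compared over all genes. Scgn, with the highest ratio in Th-positive cells, was found after thinning in 21.7% of all Th-positive cells. It was found in 0 of the 52 thinned Th-negative cells. Conversely, all 6 Th-positive cells with a single Ghrh UMI held Dlx1, and 4 of them held Prox1.

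**Figure D4:**
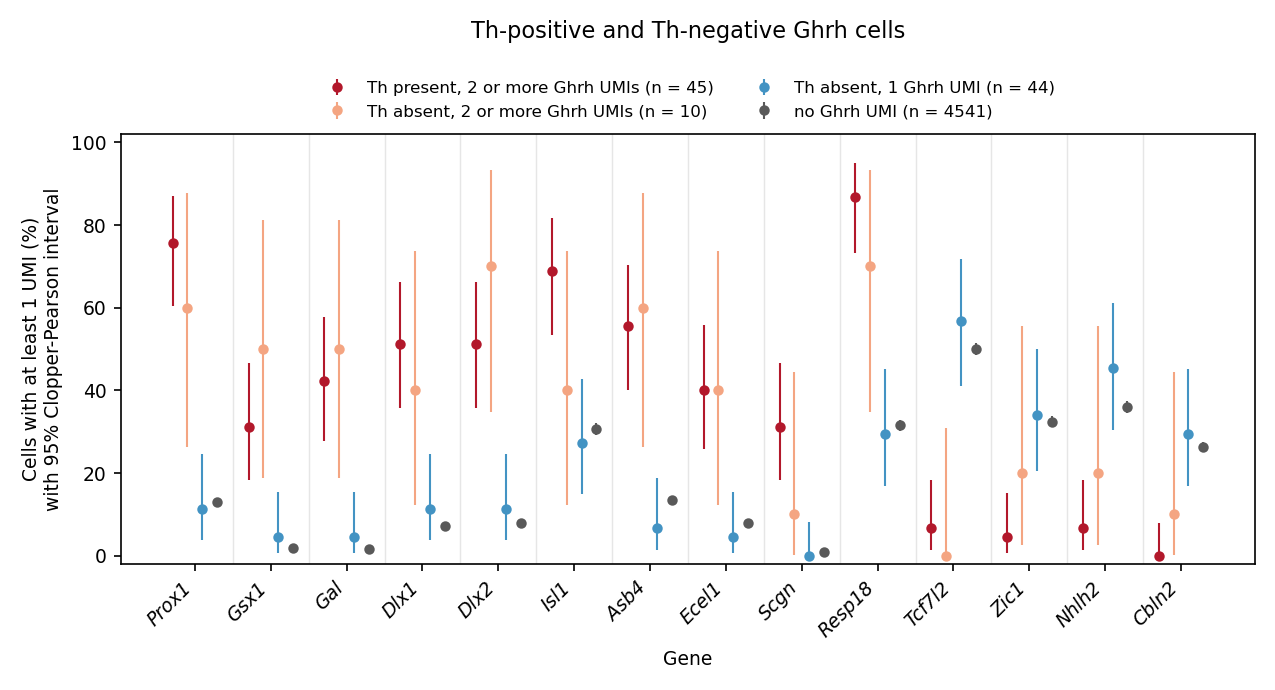
Percent of cells with at least 1 UMI (y axis, with 95% Clopper-Pearson intervals as bars) of 14 genes (x axis) in Ghrh-positive cells with Th and 2 or more Ghrh UMIs, without Th and with 2 or more Ghrh UMIs, without Th and with 1 Ghrh UMI, and in Stmn2-positive cells without Ghrh. The 10 Th-negative cells with 2 or more Ghrh UMIs lie with the 45 Th-positive cells for Prox1, Gsx1, Gal, Dlx1 and Dlx2, and the 44 cells with 1 Ghrh UMI lie with the cells without Ghrh.

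The Ghrh-positive cells were also set against other Th and Dlx neurons, with which they share markers. There were 130 Th-positive neurons without Ghrh, with a median of 2934 UMIs, and 424 neurons with Dlx1, Dlx2, Dlx5 or Dlx6 but without Lhx1, Ghrh or Th, with a median of 2831.50 UMIs. Against the Th-positive neurons, 179 of 5612 measured genes or 3.19% were at least 2-fold higher and 204 or 3.64% at least 2-fold lower in the 105 Ghrh-positive cells. Against the Dlx neurons, 243 of 7640 or 3.18% were higher and 415 or 5.43% lower. Genes used to choose a group were left out of its counts. All 105 cells enter these ratios, the 50 with 1 Ghrh UMI included.

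Prox1 and Gal were higher in Ghrh-positive cells than in both of these groups. Gal was found in 3.08% of the Th-positive neurons without Ghrh and 2.12% of the Dlx neurons, with log2 CPM ratios of the Ghrh-positive cells of 3.76 (2.31 to 5.69) and 3.96. Prox1 was found in 16.9% and 12.0%, with ratios of 1.89 (1.30 to 2.52) and 2.10 (1.67 to 2.53). Gsx1 was found in 8.46% and 11.1%, with ratios of 1.59 (0.59 to 2.68) and 0.93 (0.26 to 1.57). Pnlip stood at 4.50 (1.85 to 9.87) and 5.16 (3.12 to 8.30), and Diaph3 at 3.45 (1.76 to 5.81) and 3.11 (2.09 to 4.21). Resp18 stood at 1.14 (0.78 to 1.51) and 1.70. Foxp2 stood at 1.01 (0.32 to 1.73) and 1.67 (1.09 to 2.25), so that its interval left out 0 against these neurons but not against all Stmn2-positive cells.

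GABA genes were not higher than in these groups. A UMI of Gad1, Gad2 or Slc32a1 was found in 40.8% of both the Th-positive neurons and the Dlx neurons, against 27.6% of all 105 Ghrh-positive cells and 43.6% of those with 2 or more Ghrh UMIs. Dlx1 and Dlx2 had ratios of 0.41 (-0.15 to 0.97) and 0.47 (-0.08 to 1.03) to the Th-positive neurons. Some factors and peptides of other neurons were lower. Sst stood at -4.81 (-6.45 to -3.55) to the Th-positive neurons and -2.96 (-4.61 to -1.70) to the Dlx neurons, and Otp at -2.80 (-3.51 to -2.16) and -1.82 (-2.52 to -1.20). Npy stood at -1.51 (-2.78 to -0.40) to the Th-positive neurons and 0.25 (-1.02 to 1.38) to the Dlx neurons. Tbx3 stood at -2.68 (-4.65 to -1.17) and -3.49 (-5.38 to -2.10). Isl1, higher by share against all Stmn2-positive cells, stood at -0.93 (-1.31 to -0.57) and -0.61 (-0.95 to -0.28) against these neurons. Its level was 304 CPM in the 55 cells with 2 or more Ghrh UMIs (230 to 394) and 154 CPM in the 50 with 1 (106 to 217), beside 428 CPM in the Th-positive neurons (370 to 493) and 342 CPM in the Dlx neurons (313 to 374).

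**Figure D5:**
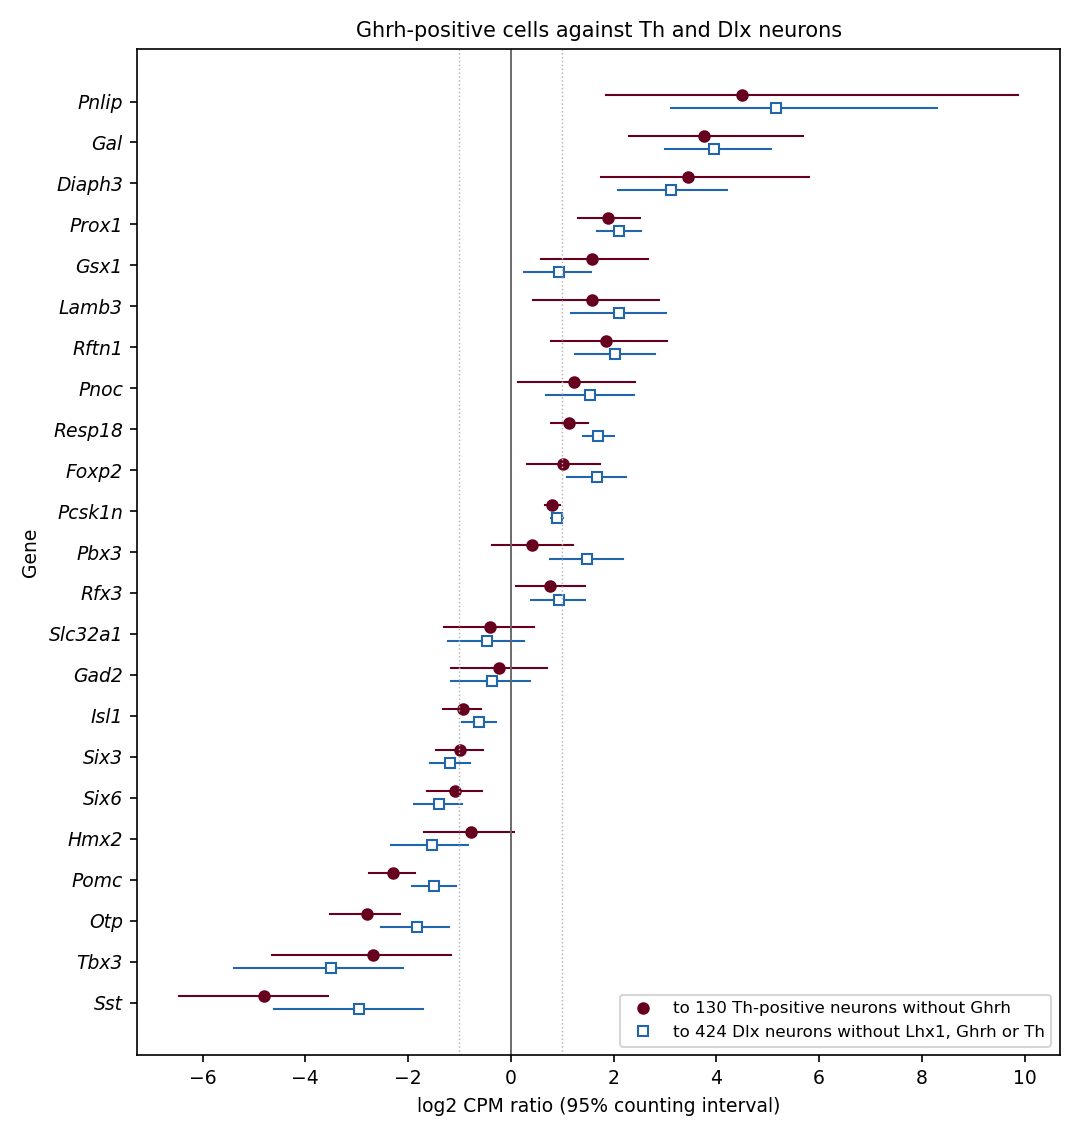
Log2 CPM ratio of the 105 Ghrh-positive cells (x axis, with 95% counting intervals as lines and dotted lines at 2-fold) of 23 genes (y axis) to 130 Th-positive neurons without Ghrh (filled circles) and to 424 Dlx neurons without Lhx1, Ghrh or Th (open squares). Pnlip, Gal, Diaph3 and Prox1 lie right of 0 in both comparisons, Slc32a1 and Gad2 straddle 0, and Otp, Tbx3 and Sst lie to the left.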

How the data were processed

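Single cell RNA-seq was done on 1 pool of ARC cells from 6 embryos, and the 4 samples are sequencing runs of that library. The authors deposited raw UMI counts per gene and barcode, without normalization. Per the labels and the submitters' processing notes, Cell Ranger 2.1.1 and STAR 2.4.0 were used with mm10, and Seurat 2.0 for later steps. The 6465 barcodes held 26277265 UMIs. Barcodes were kept with 200 to 4500 genes, at most 10% mitochondrial UMIs and at most 10 Hba-a1 UMIs. The study analysed fewer cells than these limits keep, and its selection could not be rebuilt, so the cells differ from its own. No doublet caller was run. An alternative setting removed cells with 2 or more UMIs of pituitary, macrophage, vessel or fibroblast markers, or 10 or more Pomc UMIs. It did not use marker lists of other neurons.

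The cells, their groups and the 32 gene lists were chosen with earlier results of these data known. CPM was computed from UMIs summed over the cells of a group. Shares have Clopper-Pearson intervals, and log2 CPM ratios have conditional exact binomial intervals, both at 95%. A gene at 0 in a group was set to the floor of 3 counts over the group. Ghrh and Stmn2 chose the cells and were left out of the counts of genes, as was Th where Th chose a group. No test was run, since cells of 1 library are not replicates. The code for the ratios was checked on simulated counts. Named genes were the 5 markers, the up to 4 highest and 3 lowest measured genes of each list by ratio to the other Stmn2-positive cells, the 15 highest (20 or more UMIs, found in 10% or more of the cells) and 10 lowest of all genes, the 8 highest in each direction between Th-positive and Th-negative cells, and genes the study names. Esr1, Ghr, Ghsr, Sstr1, Sstr2, Kiss1, Tac2, Ddc, Slc18a2, Slc6a3, Dlx5, Dlx6, Vim, Unc5b and Ptprn2 fall outside this rule and were named after their values were seen. Python 3.11.15, numpy 2.4.6, scipy 1.17.1 and matplotlib 3.10.9 were used, and promoter windows came from RefSeq (GRCm38.p6) and gene positions from GENCODE on GRCm38.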

Additional observations from a re-analysis of the deposited data

Results flagged for a closer look

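The 114 barcodes removed by the limits on cells, with a median of 16313 UMIs, held 4 Ghrh UMIs in 2 barcodes. They are listed because the comparisons above do not use these barcodes.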

How the results depend on the processing

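Of 90 values recomputed under 10 alternative settings, 74 stayed close (cell numbers and percentages of genes within 1.5 times, the Th share and the ratios within their counting interval), 16 moved and none changed direction. At a limit of 2 Ghrh UMIs, 55 cells remained, the Th share was 81.8% in place of 48.6%, and 3.35% of measured genes were at least 2-fold higher and 10.9% at least 2-fold lower, in place of 1.50% and 6.30%. The Th share was 33.7% at equal depth and 38.2% where 1 random part of the UMIs chose the cells and the other gave the values. With no filter on low counts, 38.4% of genes were at least 2-fold higher, since a gene with a few UMIs passes 2-fold easily. The Th share stayed between 48.4% and 51.6% under other limits on mitochondrial UMIs, gene number and Stmn2, and with Tubb3 in place of Stmn2. It also did so without cells that carried pituitary, macrophage, vessel or fibroblast markers or many Pomc UMIs. Foxp2 had a log2 ratio of 0.82 in place of 0.35 when the comparison cells were limited to those with hypothalamic factors. The Ghrh-positive cells were not limited in this way. At 2 or more Ghrh UMIs the Foxp2 ratio was 0.19. Otp had a ratio of -4.56 (-9.86 to -2.08) in place of -1.61 where 1 random part of the UMIs chose the cells. That value rested on very few Otp UMIs. No paired analysis was possible because the 4 runs are 1 library in 1 group. Depth limits rare transcripts such as Gal, Gsx1, Ddc and the hormone receptors, and 105 cells of 1 pool say nothing of the spread between embryos.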

Other observations

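Outside the gate, the 25 Ghrh-positive cells without Stmn2 held 70 Ghrh UMIs, with a maximum of 15 in a cell. Of these cells, Prox1 was found in 36.0%, Gsx1 in 24.0%, Dlx1 in 5 of the 25, Gal in 2 and Nhlh2 in none, and their median depth was 2867 UMIs.

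Among genes too rare to pass the limit for measured genes, both of these had intervals above 0. Unc5b, a netrin receptor, was found in 9.52% against 1.28% of cells, a log2 CPM ratio of 2.92 (1.84 to 3.85) from 11 UMIs. Ptprn2, a protein of secretory granules, stood at 1.36 (0.38 to 2.19) from 12 UMIs. Both were named after their values were seen.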
